A study of Arabidopsis thaliana with 6 samples.

Results

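In wild-type Arabidopsis thaliana (ecotype Col-0), ribosome footprint levels over 24 genes of leaf mitochondria spanned a wider range than RNA levels. Among the 13 genes of oxidative phosphorylation the footprint range was instead the narrower one, 31.6-fold against 37.9-fold for RNA. Among the 11 other genes, matR included, it was the wider one, 21.8-fold against 13.3-fold. That direction rests on matR. Without matR, footprint levels of this group ran from 711 TPM (ccmB) to 4803 TPM (rps7), in units explained below. RNA levels ran from 1465 TPM (ccmFN1) to 19462 TPM (rpl5), so the footprint range was then the narrower one. Ribosome footprints, the pieces of messenger RNA that a ribosome shields from nuclease, were compared with total RNA. This is 2 of the 6 libraries of the series, 1 library of wild-type footprints (WT_RFP) and 1 of wild-type RNA (WT_Total), chosen by their titles. The other 4 libraries come from a heterozygous rps10 mutant and were not used here. Gene levels were given for 24 of the 33 protein-coding genes on the lists used below. Mitochondria came from the youngest leaves of plants 9 to 10 weeks old that were raised without kanamycin under short days (8 h of light), from about 30 g of leaves per isolation. Both libraries were made from 15 pooled mitochondrial preparations, thawed with 100 µg/ml chloramphenicol, an inhibitor that holds mitochondrial ribosomes on their messengers. There is 1 library per group, so no value has a replicate check, no test was possible and no p-value is given. A leaf holds several cell types, and a level here is an average over them, in which fewer cells of a type and less RNA per cell cannot be told apart.

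The mitochondrial genome of a flowering plant encodes a few subunits of each complex of oxidative phosphorylation (OXPHOS), some proteins of the mitochondrial ribosome, proteins that attach heme to cytochrome c, a maturase and a membrane transporter. The other subunits of these complexes are made in the cytosol from nuclear genes and imported, so that products of both genomes meet in each complex. Plant mitochondrial genes often share a transcript with a neighbour, and many of their messengers are spliced and edited before use.

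Levels are in TPM, which is per length of gene and sums to 1000000 over the 24 genes in each library. A TPM value is therefore relative to the other 23 genes and says nothing of amounts per mitochondrion. Efficiency is the footprint TPM of a gene divided by its RNA TPM. An efficiency of 1 means that the gene held the same part of the footprints as of the RNA. Genes at least 1.5-fold to either side of 1 (0.58 on the log2 scale) are counted as higher or lower, which is a rule of size and not a test. The number of reads on each gene is not known here, so no counting error can be given for a gene, and neighbours in any order of genes below cannot be said to differ beyond their error.

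All 13 OXPHOS genes had a higher footprint level than each of the 11 other genes, whereas the RNA levels of these groups overlapped. The lowest OXPHOS footprint level was that of atp6.2, at 7876 TPM, 1.64-fold above the highest level outside OXPHOS, the 4803 TPM of rps7, a ribosomal protein gene. In RNA, 11 of the 13 OXPHOS genes lay above every other gene. The RNA levels of atp6.2 (8583 TPM) and nad3 (12731 TPM) lay below that of rpl5 (19462 TPM), and 3 genes outside OXPHOS exceeded atp6.2. The median OXPHOS gene stood 31.7-fold above the median other gene in footprints and 8.31-fold above it in RNA. OXPHOS genes together held 97.7% of the footprint TPM and 92.6% of the RNA TPM, so the other 11 genes held 2.32% of the footprints and 7.36% of the RNA. The order held for all 13 when footprints were weighted by their share in frame 0, with a smaller margin of atp6.2 over rps7. Frame 0 held 48.3% of the footprints of atp6.2 and 70.0% of those of rps7. The order also held for 11 of 11 without atp6.1, atp6.2 and rpl16, whose reads may be shared with another gene. This ordering and both checks of it were chosen after the data were seen.

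**Figure D1:**
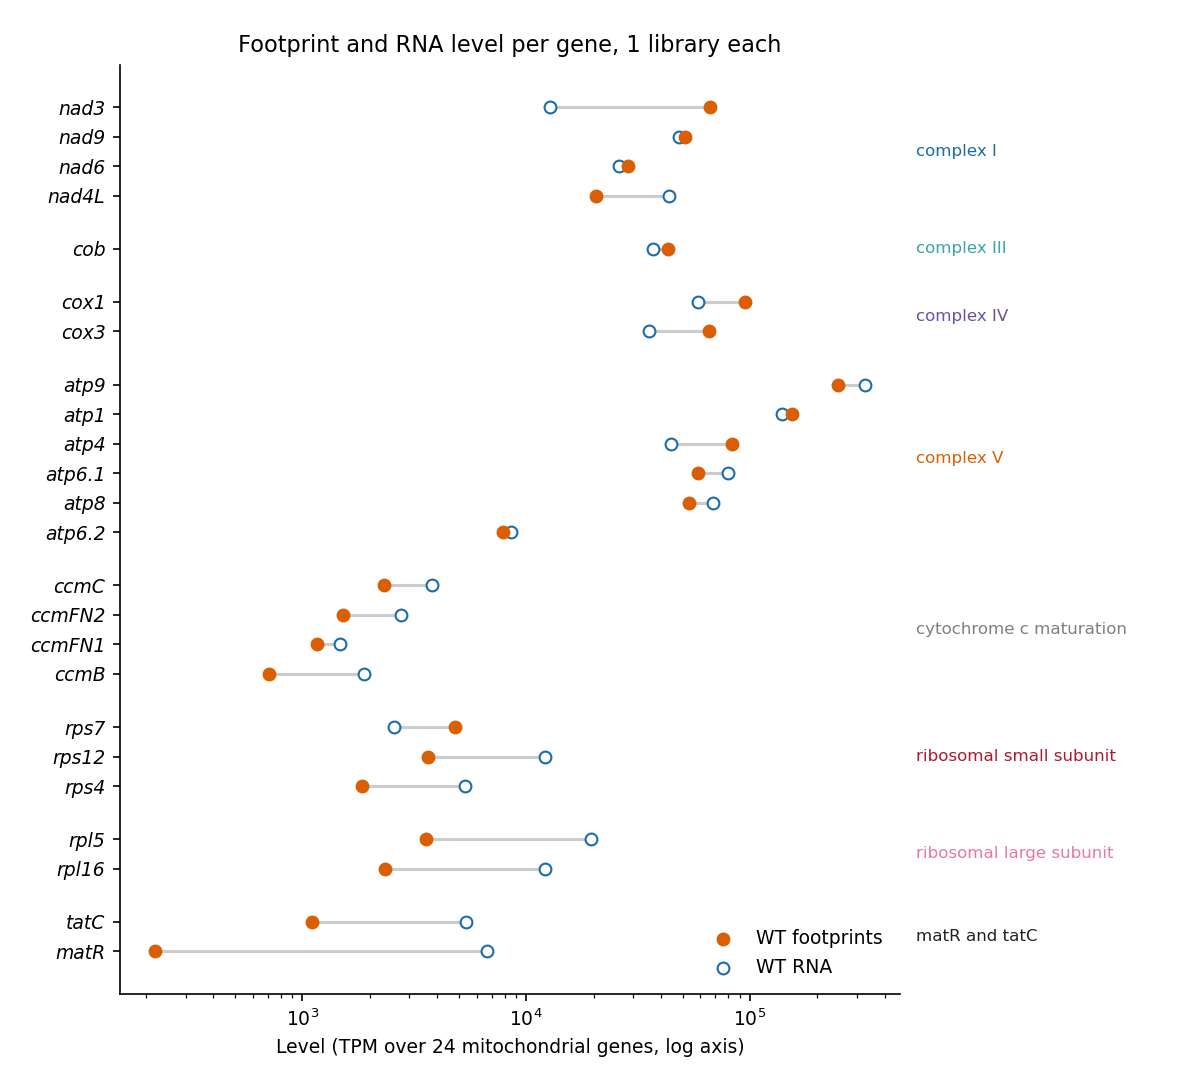
Level of each gene in wild-type footprints (filled) and wild-type RNA (open), in TPM on a log axis, grouped by complex, with 1 library each. The 13 OXPHOS genes have footprint levels from 7876 to 248628 TPM, all above the 220.2 to 4803 TPM of the 11 other genes, while the open points of these groups overlap.

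Over the 24 genes, efficiency was higher by the 1.5-fold rule for 5 genes (20.8% of the 24) and lower for 10 (41.7%), and 9 lay between. The higher genes were nad3 (5.20), atp4 (1.88), rps7 (1.88), cox3 (1.86) and cox1 (1.62). The lower genes were ccmC (0.612), ccmFN2 (0.552), nad4L (0.469), ccmB (0.377), rps4 (0.345), rps12 (0.300), tatC (0.206), rpl16 (0.192), rpl5 (0.183) and matR (0.0330). The lowest efficiency called higher was thus that of cox1, and the next gene below it, cob, stood at 1.17 and was not called. On the low side ccmC was the call nearest the limit, and atp6.1 at 0.734 stood just inside. The highest and the lowest efficiency were 158-fold apart. Footprint levels spanned 1129-fold from matR to atp9 and RNA levels 222-fold from ccmFN1 to atp9. Without matR, efficiencies spanned 28.4-fold, footprint levels 350-fold and RNA levels still 222-fold. The 10 lowest genes of each library held 1.84% of the footprints and 5.06% of the RNA. The top 5 genes held 64.8% of the footprints and 67.0% of the RNA. The median gene had an efficiency of 0.773 (-0.37 on the log2 scale). Counted relative to that median gene, 6 genes were higher and 8 lower, with cob added to the higher genes and ccmC and ccmFN2 no longer lower. A 2-fold rule left nad3 as the 1 higher gene (4.17%) and 8 genes lower (33.3%).

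**Figure D2:**
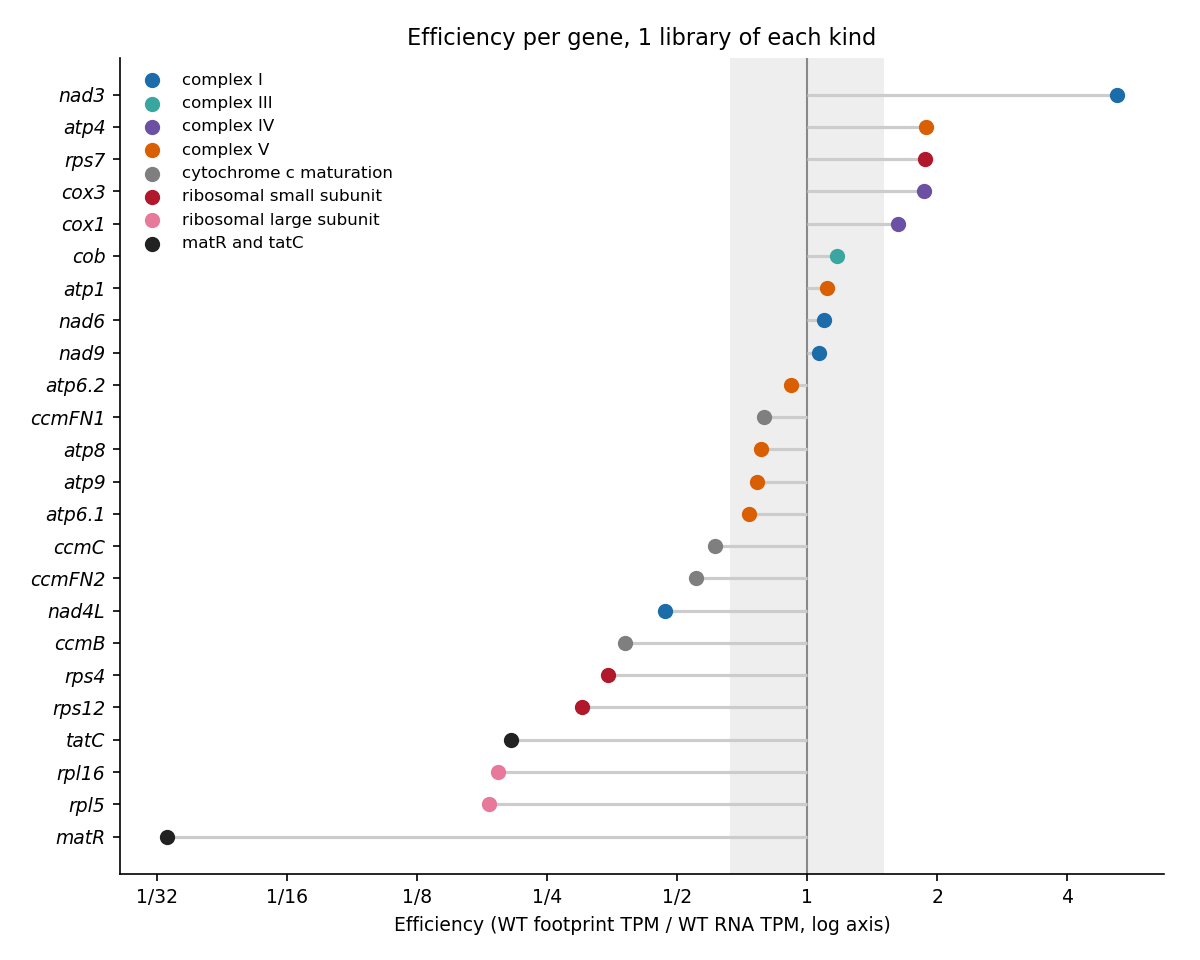
Efficiency of the 24 genes, wild-type footprint TPM over wild-type RNA TPM on a log axis, ordered from high to low and coloured by complex, with 1 library of each kind. The grey band marks less than 1.5-fold from 1; 5 genes lie to its right, from cox1 at 1.62 to nad3 at 5.20, and 10 to its left, down to matR at 0.0330.

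Of OXPHOS, 4 of 13 genes were higher and 1 lower, against 20.8% and 41.7% of all genes, and the median log2 efficiency was 0.12. Outside OXPHOS, 1 of 11 genes was higher and 9 lower, with a median of -1.54, beside -0.37 over all 24 genes. The OXPHOS median turned to -0.02 when atp9, the most abundant gene of both libraries, was left out, so the side of 1 on which OXPHOS lies depends on the scaling.

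Complex I, the NADH dehydrogenase that feeds electrons into the respiratory chain, held both the highest efficiency of all and a low one among its 4 genes with a level. The gene nad3, for a subunit of the membrane arm, had 66237 TPM in footprints and 12731 TPM in RNA, an efficiency of 5.20. It ranked 5 of 24 by footprints and 13 of 24 by RNA. The gene nad4L, for another small membrane-arm subunit, had 20459 TPM in footprints and 43620.4 TPM in RNA, an efficiency of 0.469 (log2 -1.09). These 2 subunits of the same membrane arm were thus 11.1-fold apart in efficiency. For nad6, also a membrane-arm subunit, the levels were 28436 TPM in footprints and 26081 TPM in RNA. For nad9, a subunit of the arm that reaches into the matrix, they were 51479 TPM in footprints and 48418 TPM in RNA. The efficiencies of nad6 (1.09) and nad9 (1.06) lay within the 1.5-fold range. The footprint level of nad3 was the highest of the 4, 1.29-fold above that of nad9, while its RNA level was the lowest of the 4, 3.80-fold below that of nad9. The 4 genes spanned 3.24-fold in footprints and 3.80-fold in RNA. Their median log2 efficiency of 0.11 turned to -0.05 without atp9.

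Complexes III and IV had efficiencies above 1 under each scaling tried. The gene cob, for cytochrome b of complex III, had 43079.6 TPM in footprints and 36828 TPM in RNA, an efficiency of 1.17. In complex IV, the cytochrome c oxidase that passes electrons to oxygen, cox1 for the catalytic subunit had 95339 TPM in footprints and 58889.9 TPM in RNA, an efficiency of 1.62. The core subunit gene cox3 had 65924 TPM in footprints and 35391 TPM in RNA, an efficiency of 1.86. Both genes were counted as higher, 2 of the 2 measured, beside 20.8% of all genes. They stood 1.45-fold apart in footprints and 1.66-fold apart in RNA. Without atp9 the log2 efficiency of cox1 was 0.54, under the rule. The other gene of this complex on the lists, cox2, is in 2 exons and had no level here.

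Complex V, the ATP synthase, took the largest part of both libraries, 60.6% of the footprint TPM and 66.4% of the RNA TPM. The gene atp9, for the c subunit that forms the rotating ring in the membrane, ranked 1 in both with 248628 TPM in footprints and 325300.3 TPM in RNA (efficiency 0.764). The gene atp1, for the alpha subunit of the catalytic head, ranked 2 in both with 154323 TPM in footprints and 138579 TPM in RNA (1.11). Of the 6 genes, 1 was counted as higher (atp4) and none as lower, beside 20.8% and 41.7% of all genes. The atp4 gene encodes a subunit of the stalk that holds the head in place, and it had 83291 TPM in footprints and 44266 TPM in RNA, an efficiency of 1.88. The membrane subunit gene atp8 had 53410.0 TPM in footprints and 68276 TPM in RNA (0.782). The gene atp6.1, 1 of 2 copies for the subunit that carries the proton path, had 58296 TPM in footprints and 79439 TPM in RNA (0.734), and its copy atp6.2 had 7876 TPM in footprints and 8583 TPM in RNA (0.918). These copies are alike over much of their length, and the sources used here do not say how reads were divided between them. The copy atp6.1 stood 7.40-fold above atp6.2 in footprints and 9.26-fold in RNA.

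The order of the complex V genes differed between the libraries through atp4. In footprints it ranked next after atp1, above atp6.1 and atp8, and in RNA it came below both. Ring subunit atp9 exceeded head subunit atp1 1.61-fold in footprints and 2.35-fold in RNA, and it exceeded atp4 2.99-fold in footprints and 7.35-fold in RNA. Without atp6.2 the genes of this complex spanned 4.66-fold in footprints and 7.35-fold in RNA, and with it 31.6-fold and 37.9-fold. The median log2 efficiency of the 6 genes was -0.24, and it was 0.13 relative to the median gene, so no direction is given for the complex.

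Cytochrome c maturation genes encode membrane proteins that carry heme and join it to cytochrome c. Of the 4 measured, 3 were counted as lower and none as higher, beside 41.7% and 20.8% of all genes. The gene ccmB, for a part of an ABC-type transporter, had 711 TPM in footprints and 1884 TPM in RNA (0.377). The gene ccmC, for a protein that passes heme on, had 2312 TPM in footprints and 3781 TPM in RNA (0.612). The heme lyase CcmF is split in Arabidopsis, and its genes ccmFN1 and ccmFN2 had footprint levels of 1159.9 and 1525 TPM and RNA levels of 1465 and 2765 TPM, with efficiencies of 0.792 and 0.552. The list's median log2 efficiency was -0.78, and relative to the median gene it was -0.41, where ccmB alone was called. Together these 4 genes held 0.571% of the footprints and 0.989% of the RNA. They spanned 3.25-fold in footprints and 2.58-fold in RNA, so the footprints were the more uneven of the 2 here.

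Genes for ribosomal proteins were mostly low in efficiency, with 4 of 5 counted as lower and 1 as higher, beside 41.7% and 20.8% of all genes, and a median log2 efficiency of -1.74, beside -0.37 over all genes. In the large subunit, rpl5 had 3565 TPM in footprints and 19462 TPM in RNA, an efficiency of 0.183. The other large-subunit gene, rpl16, had 2335 TPM in footprints and 12136 TPM in RNA (0.192). In the TAIR10.1 gene table it overlaps the rps3 gene, and counted through frame 0 its log2 efficiency was -3.46 instead of -2.38. Only footprints were weighted by frame here, and its RNA level still holds any reads shared with rps3. In the small subunit, rps12, for a protein near the site where codons are read, had 3649 TPM in footprints and 12165 TPM in RNA (0.300), and rps4 had 1836 TPM in footprints and 5327 TPM in RNA (0.345). The exception was rps7, a protein of the small-subunit head, with 4803 TPM in footprints and 2561 TPM in RNA (1.88).

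Within the ribosomal proteins the order by RNA did not carry over to the footprints. The gene with the most footprints, rps7, had the least RNA of the 5, and the gene with the most RNA, rpl5, had a footprint level 1.35-fold below that of rps7 and an RNA level 7.60-fold above it. The 5 genes spanned 2.62-fold in footprints and 7.60-fold in RNA, and the span was the same without rpl16. Their footprints together were 1.62% of the total and their RNA 5.17%.

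The remaining pair of genes had some of the lowest efficiencies. The gene matR, for a maturase that helps splice group II introns and lies within an intron of nad1, had 220.2 TPM in footprints, the lowest of the 24, and 6679.7 TPM in RNA, which ranked 17. Its efficiency of 0.0330 was 30.3-fold below 1 (log2 -4.92). The gene tatC, for a membrane protein of the twin-arginine transport system, had 1105 TPM in footprints and 5370.3 TPM in RNA (0.206). Their footprint levels were 5.02-fold apart, with tatC the higher, and their RNA levels 1.24-fold apart, with matR the higher.

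**Figure D3:**
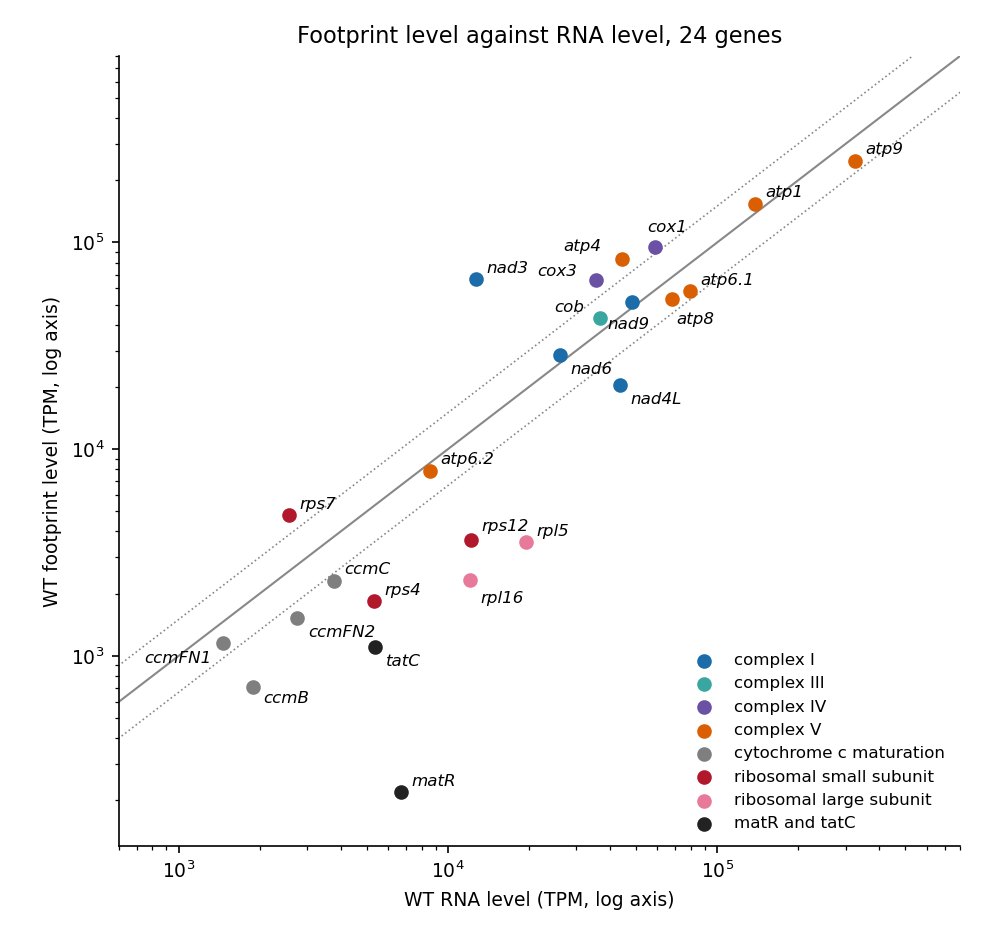
Wild-type footprint level against wild-type RNA level of the 24 genes, both in TPM on log axes, coloured by complex, with 1 library each. The solid line marks an efficiency of 1 and the dotted lines 1.5-fold to either side; nad3 stands furthest above at 5.20 and matR furthest below at 0.0330.

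Across the 24 genes footprint and RNA levels went together, with a Spearman rho of 0.86 and a Pearson r of 0.87 on the log2 scale. This is a description of 1 pair of libraries made from the same pooled lysate. Within the 13 OXPHOS genes rho was 0.63, and within the 11 other genes it was 0.33. The SD of log2 levels over the 24 genes was 2.87 in footprints, 2.07 in RNA and 1.49 in efficiency. Within OXPHOS these SDs were 1.26 in footprints, 1.35 in RNA and 0.86 in efficiency. Among the 11 other genes, matR included, they were 1.26, 1.19 and 1.49. The last of these leans on matR, whose log2 efficiency of -4.92 lay far below the next lowest, rpl5 at -2.45. These SDs were not taken for this group without matR, so no order of efficiency and level is drawn from them. Without matR the SD of efficiency over 23 genes was 1.20. The median gene changed its rank by 3 places between the libraries, and the largest gains in footprints over RNA were 8 places for nad3 and 8 for rps7.

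Genes that lie side by side were compared as pairs, because they may share a transcript. The TAIR10.1 gene table, which gives no strand, put 3 pairs of these genes less than 1000 bases apart. In nad3 and rps12 the footprint levels were 18.2-fold apart (66237 and 3649 TPM), while the RNA levels were 1.05-fold apart (12731 and 12165 TPM). In atp4 and nad4L the footprint levels were 4.07-fold apart (83291 and 20459 TPM), and the RNA levels were 1.01-fold apart (44266 and 43620.4 TPM). Neighbours with nearly equal RNA thus differed 17.3-fold and 4.01-fold in efficiency, against a median of 2.45-fold over all 276 pairs of the 24 genes. The other pair, nad9 and rpl16, differed 22.0-fold in footprints, 3.99-fold in RNA and 5.53-fold in efficiency. Reads of rpl16 may be shared with rps3, which it overlaps.

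A ribosome moves by whole codons, so footprints of translating ribosomes fall mostly in 1 of the 3 frames of a gene. Frame 0, the frame of the codons, held the largest share of footprints in 23 of the 24 genes, with a median of 59.2% beside the 33.3% of an even spread. The shares were highest for rps7 (70.0%), nad6 (67.3%) and ccmB (65.3%). They were lowest for rpl16 (27.7%), matR (42.9%) and atp6.2 (48.3%). In rpl16, which overlaps rps3, frame 1 held 48.1% of the footprints. Frame 0 held over 50% of the footprints in 21 of the 24 genes. The sources used here do not say how footprints were put into frames, nor how many footprints each share rests on.

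The frame shares did not follow the grouping by complex closely. OXPHOS genes had a median frame 0 share of 59.6% (48.3 to 67.3%) and the other genes 54.6% (27.7 to 70.0%), and these ranges overlapped. The efficient gene nad3 had 63.3% in frame 0. Genes of low efficiency also had clear periodicity, with 62.1% for rps4, 61.5% for tatC, 57.7% for rps12 and 54.4% for rpl5. Between frame 0 share and efficiency rho was 0.49 over the 24 genes, and between frame 0 share and footprint level it was 0.23. The points share 1 footprint library, and efficiency and footprint level are built from the same value. Of the other frames, frame 2 held more than frame 1 in 16 genes and less in 8, with medians of 21.8% for frame 2 and 19.6% for frame 1.

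**Figure D4:**
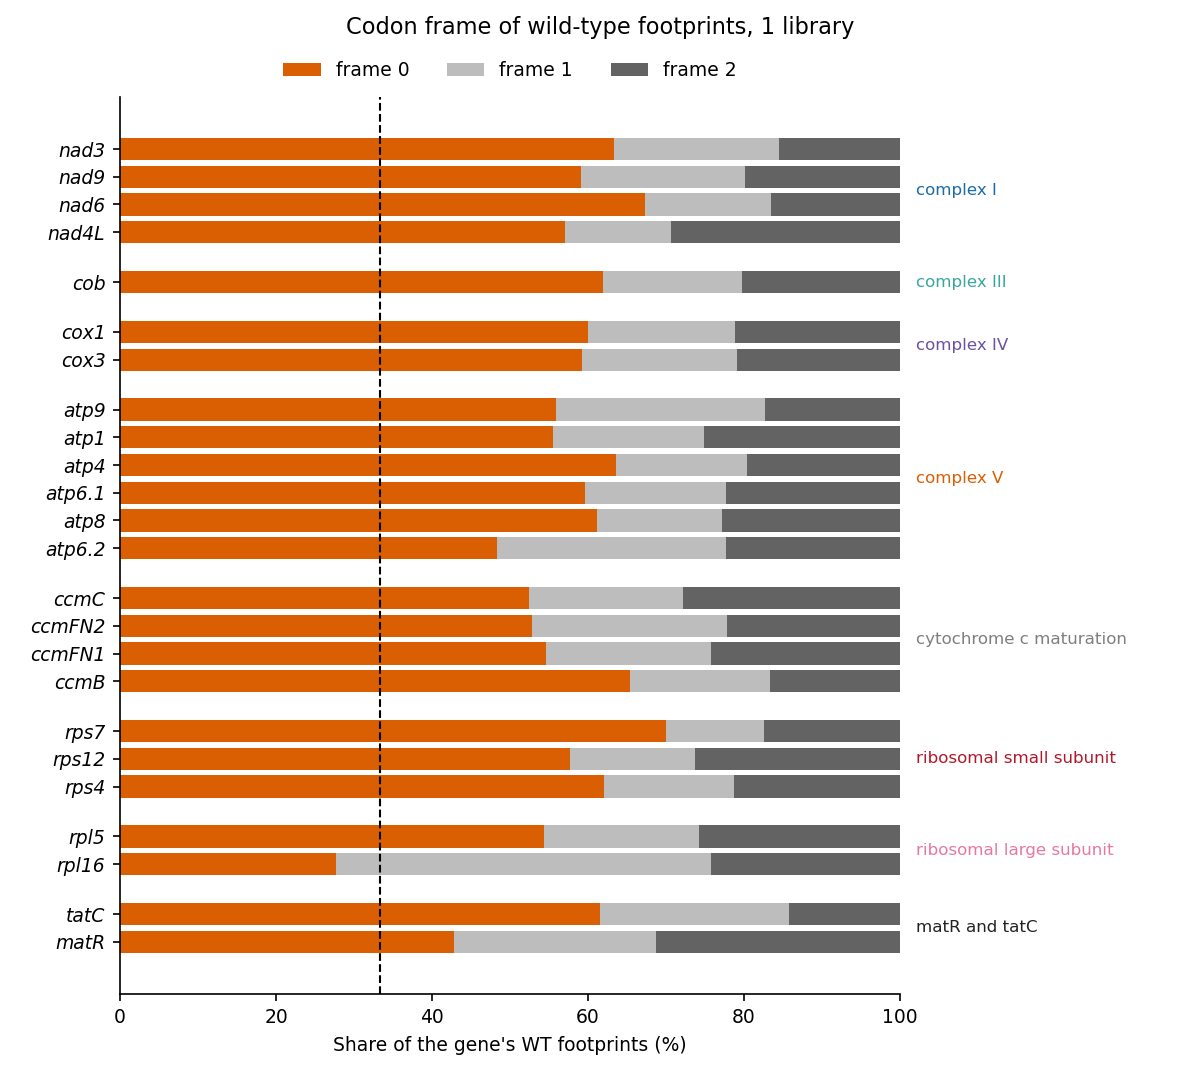
Share of each gene's wild-type footprints in frames 0, 1 and 2, in percent, grouped by complex, from 1 library. The dashed line marks the 33.3% of an even spread; frame 0 is the largest share in 23 of 24 genes, from 42.9% in matR to 70.0% in rps7, and rpl16 is the exception with 27.7%.

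The 9 genes without a level are split into exons, and their footprints were described by frame alone, over 32 exons. Frame 0 led in 26 exons, frame 1 in 2, frame 2 in 3, and frames 0 and 1 tied in 1, with a median frame 0 share of 56.4%. The highest shares were those of exon 2 of cox2 (73.6%), exon 2 of nad2 (68.7%) and exon 5 of nad1 (66.5%). The lowest were those of exon 5 of nad2 (21.7%), exon 2 of rpl2 (25.0%) and exon 4 of nad4 (34.2%). In exon 5 of nad2, frame 2 held 58.5% of the footprints, and in exon 4 of nad4 it held 51.8%. These exons belong to genes whose other exons led with frame 0, at 54.1 to 68.7% in nad2 and 54.5 to 65.2% in nad4. In nad7, exon 2 had 47.9% in frame 2 and exon 1 had 42.0% in frame 1, and its other 3 exons led with frame 0. All 5 exons of nad1 led with frame 0 (38.3 to 66.5%), as did 4 of 5 in nad5 and both exons of cox2, ccmFc and rps3. In nad5, exon 3 had 50.0% in each of frames 0 and 1. The footprints behind each exon's share are not known. The round shares of this exon and of exon 2 of rpl2 (25.0, 50.0 and 25.0%) could come from very few.

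Open reading frames (ORFs) with no assigned function had a median frame 0 share of 46.3% where a share was given, beside 59.2% over the 24 genes. The number of footprints behind each share is not known, and whether their periodicity is weaker was not tested. Of 84 listed, 36 had no frame share and 48 had one, and in 31 of these 48 at least 1 frame was at 0. The other 17 had footprints in every frame, with a median frame 0 share of 46.1%, and this restriction was chosen after the values were seen. It acts on the frame shares themselves, since it leaves out 11 ORFs with 100% in frame 0 and 14 with 0%. Frame 0 led in 11 of the 17, frame 2 in 5 and frame 1 in 1. Among these 17, the highest shares were those of ORF215A (63.3%), ORF153B (62.7%) and ORF313 (58.6%). The lowest were those of ORF107G (2.99%), ORF315 (13.4%) and ORF240A (25.0%). Frame 2 held 76.0% of the footprints of ORF107G and 55.5% of those of ORF315. Levels of these ORFs were not analysed here.

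The 2 libraries differed in the origin of their reads. Of 7744978 footprint reads after trimming and filtering, 56.7% were mitochondrial tRNA or rRNA and 8.59% came from the rest of the mitochondrial genome. Of 4304795 RNA reads these shares were 11.5% and 75.9%. Coding sequences (CDS) held 416254 footprint reads, 5.37% of the library (95% Wilson interval 5.36 to 5.39), and 1971931 RNA reads, 45.8% (45.8 to 45.9). Leaving tRNA and rRNA aside, CDS held 62.6% of the mitochondrial footprint reads (62.5 to 62.7) and 60.4% of the mitochondrial RNA reads (60.3 to 60.4), so 37.4% of the footprints and 39.6% of the RNA lay outside CDS. The intervals describe counting error alone and treat each read as an independent molecule. Amplified fragments are not independent, so the intervals may be too narrow even for that.

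Reads of other compartments were checked against the label of isolated mitochondria. Nuclear reads, those of tRNA and rRNA included, were 17.5% of the footprint reads and 5.04% of the RNA reads, and plastid reads 3.07% and 5.63%. Among mapped reads outside tRNA and rRNA, the mitochondrial genome held 35.7% of the footprints and 88.5% of the RNA, and the nuclear genome held 58.4% and 5.26%. Reads that mapped nowhere were 14.2% of the footprint library and 1.97% of the RNA library. Of the reads on the mitochondrial genome, 23.6% of the footprints and 8.93% of the RNA carried 1 to 5 mismatches, and 10.6% of the footprints and 18.2% of the RNA matched several positions. The part of these differences in any gene's efficiency was not tested.

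**Figure D5:**
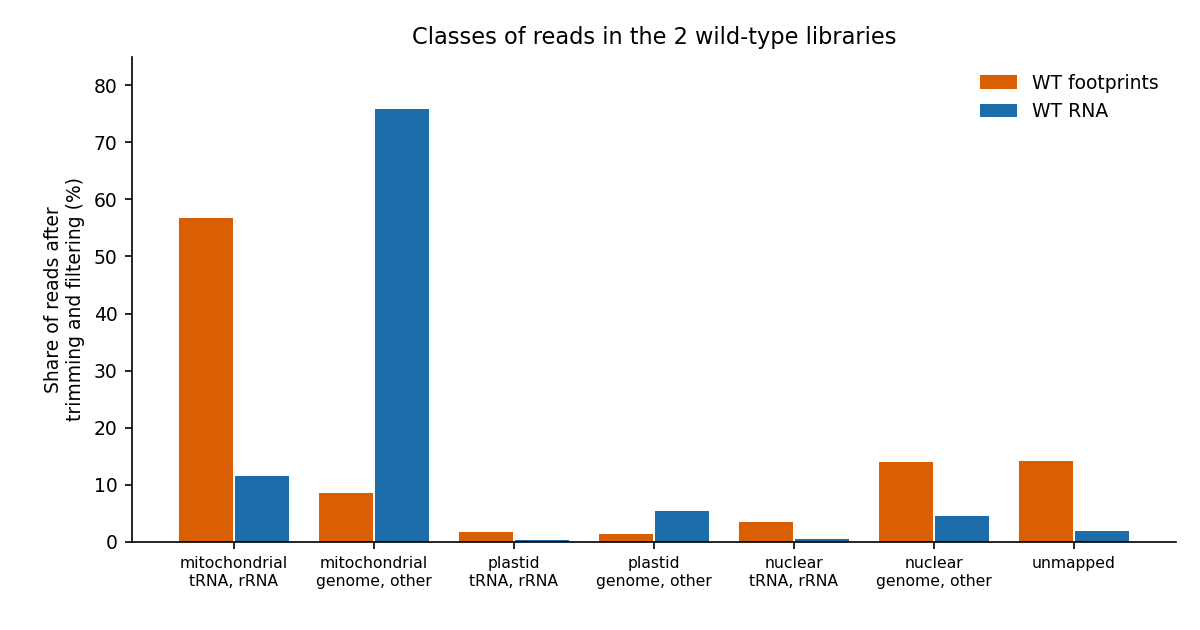
Share of reads after trimming and filtering, in percent, in each class of sequence for wild-type footprints (left bar of each pair) and wild-type RNA (right bar), with 1 library each. Mitochondrial tRNA and rRNA are 56.7% of the footprint reads and 11.5% of the RNA reads, and the rest of the mitochondrial genome is 8.59% and 75.9%.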

How the data were processed

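Footprints and RNA were taken as aliquots of the same lysate. Footprints were freed of unprotected RNA with nuclease and pelleted through a sucrose cushion, RNA was purified as long fragments, and both were depleted of rRNA, per the labels' protocols, so the libraries also differ in the fragment lengths recovered. STAR and featureCounts are named in the submitters' processing notes. No version, setting, genome build or annotation is stated in the sources used here. Levels of genes are TPM as the authors deposited them, per the file headers. Frame shares were deposited as a fraction of footprints per gene, exon or ORF, per the file headers. Numbers of reads per class were deposited with a fraction that is relative to filtered reads in the first block and to mitochondrial reads in the second.

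Ratios of TPM used no pseudocount, since no value was 0. The arithmetic was tested on simulated data. Alternatives were a pseudocount of 100 TPM, scaling without atp9 or to the median gene, a minimum of 1000 TPM, footprints weighted by frame 0, leaving out atp6.1, atp6.2 and rpl16, and a 2-fold rule. Depth was 416254 footprint and 1971931 RNA reads on CDS, and the precision of a single gene is unknown. Every gene with TPM is named, with the 3 highest and 3 lowest frame 0 shares of each kind of entry and pairs of genes less than 1000 bases apart. For ORFs, the highest and lowest shares were taken among the 17 with footprints in every frame. Of the 24 names, 21 matched the TAIR10.1 gene table by symbol, 1 by another name and 2 (the atp6 copies) by their base name, and nothing but names and neighbouring genes was taken from it. Samples were grouped by title. The members and lists were chosen with earlier results of these data known. Python 3.11.15, numpy 2.4.6, pandas 2.3.3, scipy 1.17.1 and matplotlib 3.10.9 were used.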

Additional observations from a re-analysis of the deposited data

How the results depend on the processing

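Of the calls by the 1.5-fold rule, 4 of 5 higher genes (nad3, atp4, rps7 and cox3) and 8 of 10 lower genes kept their call under every scaling, pseudocount and filter that held them. The exceptions were cox1 without atp9 and ccmC and ccmFN2 relative to the median gene. The counts were 5 higher and 10 lower as reported, 4 and 11 without atp9 (atp6.1 added at -0.60), 6 and 8 relative to the median gene, 5 and 8 with at least 1000 TPM in both libraries, which left 22 genes, and 5 and 9 without atp6.1, atp6.2 and rpl16. With the 2-fold rule 1 gene was higher, nad3, and 8 were lower. The scaling without atp9 moved the median gene to -0.51, and centring moved it to 0, against -0.37 as reported. Relative to the median gene, the log2 efficiency of complex III (cob) was 0.60, past the rule, and that of cytochrome c maturation was -0.41, no longer past it. No other list median crossed the rule. The CDS share was 5.37% of footprint reads and 45.8% of RNA reads over filtered reads, and 62.6% and 60.4% over mitochondrial reads once tRNA and rRNA were set aside. The median frame 0 share was 55.5% over every listed entry, against 59.2% over the 24 genes. No paired analysis was possible because each group holds 1 library. Reads per gene and the variation between preparations are both unknown, so neither limit can be sized here.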
